A study of Arabidopsis thaliana with 12 samples.

Results

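Nuclear genes of the photosynthetic apparatus were followed in Arabidopsis thaliana roots after the root tip had been cut off. The 49 genes were taken by locus from a table of 32833 loci, by their function, with earlier results of these data known. They encode 17 antenna proteins, 11 subunits of photosystem I, 9 subunits of photosystem II, 3 electron carriers, 4 Rubisco small subunits and 5 Calvin cycle enzymes. Their summed level was low in uncut tips and in roots cut 30 min or 4 h before, and it was higher at 14 h and 24 h. Most single genes followed this order, though some, such as LHCB6, PSBX and PETE2, were already present in uncut tips. PETE1 and LHCB2.3 had no higher pooled level late than in uncut tips. In the late roots the summed level was lower in CNQX than in mock libraries.

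All RNA came from roots of 7-day-old seedlings of the accession Col-0, with no transgene or mutation named, in 12 libraries. CNQX, an antagonist of ionotropic glutamate receptors of animals, was set against a mock treatment. Cut roots had been on plates with 50 µM CNQX or on mock plates for 1 h, had then lost about 130 µm of their tip, and had gone to new plates before about 100 µm of tissue next to the cut was taken at 30 min, 4 h, 14 h or 24 h. Each treatment had 1 library per time. Uncut roots had been on CNQX or mock plates for 14 h, and about 100 µm of their tip was taken in 2 libraries per treatment. The labels do not say whether the new plates held CNQX, at what time of day roots were taken, or whether libraries came from separate cultures, so the p-values below reflect no more than how far these libraries differ, which may be technical. Cut and uncut samples also came from different places along the root, so excision and position cannot be told apart between them. In these bulk samples, fewer cells of a type and less RNA per cell cannot be told apart.

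Antenna proteins of the LHCB and LHCA families bind chlorophyll and pass light energy to photosystem II and photosystem I. Photosystem II splits water, electrons go through the cytochrome b6f complex and plastocyanin to photosystem I, and the Calvin cycle, which starts at Rubisco, uses the products to fix carbon. The genes are expressed mainly in leaves, under control of light and of the state of the plastid. Root plastids are mostly not green, though roots kept in light can turn green.

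The libraries held 1575446 to 3302325 counts (median 2122122). Levels are in CPM, the usual scaling of counts by the library's total, and the floor of 3 counts stood for 0.908 to 1.90 CPM. Intervals given for ratios are exact 95% binomial intervals, and like the floor they cover counting error only. The mock 24 h library stood apart: across genes it correlated at 0.668 with the average of the rest, where the 11 others had 0.841 to 0.951, and 1.75% of its counts lay in ribosomal RNA loci, the lowest share. It also had the smallest share of reads not aligned uniquely, 37.6%, where the 11 others had 53.3% to 65.3%. Its share of reads counted as lying in no gene was the largest, 29.4%. Sums that rest on this library are given with and without it. Plastid loci held 0.280% to 0.730% of the counts.

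Many of the genes are near-identical copies, and the counting rule for reads that match several copies is not given in the sources used here. Coding sequences were 86.8% to 96.4% identical between pairs of the 5 LHCB1 loci, 84.5% to 96.6% between the 3 LHCB2 loci and 89.9% to 97.3% between the 4 Rubisco small subunit loci. Of the 49 genes, 38 had no 50-base window of their exons repeated elsewhere in the genome. The other 11 had 70.5% to 89.4% of their windows unique. The last 60 coding bases of the LHCB1 and RBCS B copies, read 5′ to 3′ from the RefSeq TAIR10.1 genome, are shown because they let a reader see how few letters tell the copies apart, and capitals mark the positions at which the copies of a family differ.
LHCB1.1: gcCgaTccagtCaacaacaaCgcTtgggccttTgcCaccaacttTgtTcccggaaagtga
LHCB1.2: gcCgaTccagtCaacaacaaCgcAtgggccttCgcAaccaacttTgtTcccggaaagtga
LHCB1.3: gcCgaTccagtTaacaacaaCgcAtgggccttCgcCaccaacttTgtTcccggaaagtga
LHCB1.4: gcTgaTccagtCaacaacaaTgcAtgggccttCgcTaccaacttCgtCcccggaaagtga
LHCB1.5: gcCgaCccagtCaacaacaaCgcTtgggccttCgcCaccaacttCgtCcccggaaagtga
RBCS1B: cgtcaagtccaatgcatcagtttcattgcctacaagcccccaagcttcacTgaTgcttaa
RBCS2B: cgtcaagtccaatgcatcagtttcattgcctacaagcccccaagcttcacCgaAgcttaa
RBCS3B: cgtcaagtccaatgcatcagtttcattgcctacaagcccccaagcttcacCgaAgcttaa
In these ends 9 of 60 positions differed among the LHCB1 copies and 2 of 60 among the RBCS B copies, and RBCS2B and RBCS3B had the same 60 bases. LHCB1.1, LHCB1.2 and LHCB1.3 stand close together at chr1:10474656-10475969, chr1:10472280-10473502 and chr1:10477885-10479114, and RBCS1B, RBCS2B and RBCS3B at chr5:15383167-15385320, chr5:15380907-15382071 and chr5:15376988-15378642. Single copies of these families are therefore given with their sum. Another annotated gene shares bases with 18 of the 49 genes, on the other strand in 16 of them, and the strand setting of the counting is not given. For LHCB1.5 the whole of the exons lay within other annotated genes, for PSAG 61.4%, for PSAH1 60.6%, for PSAE1 55.1% and for LHCB2.3 40.6%.

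The summed level of the 49 genes was 70.5 and 72.1 CPM in uncut CNQX roots and 83.4, 112, 383 and 737 CPM in cut CNQX roots, the last 4 values being those at 30 min, 4 h, 14 h and 24 h, an order kept throughout. In the other treatment it was 89.3 and 66.4 CPM in uncut mock roots and 65.3, 76.2, 1091 and 2064 CPM in cut mock roots. The 8 uncut and early libraries (early meaning 30 min and 4 h) lay between 65.3 and 111.8 CPM, and each of the 4 late libraries (14 h and 24 h) lay above all of them. The mean of the late libraries was 12.7 times that of the early cut libraries and 14.3 times that of the uncut tips, or 9.88 times without the mock 24 h library.

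**Figure D1:**
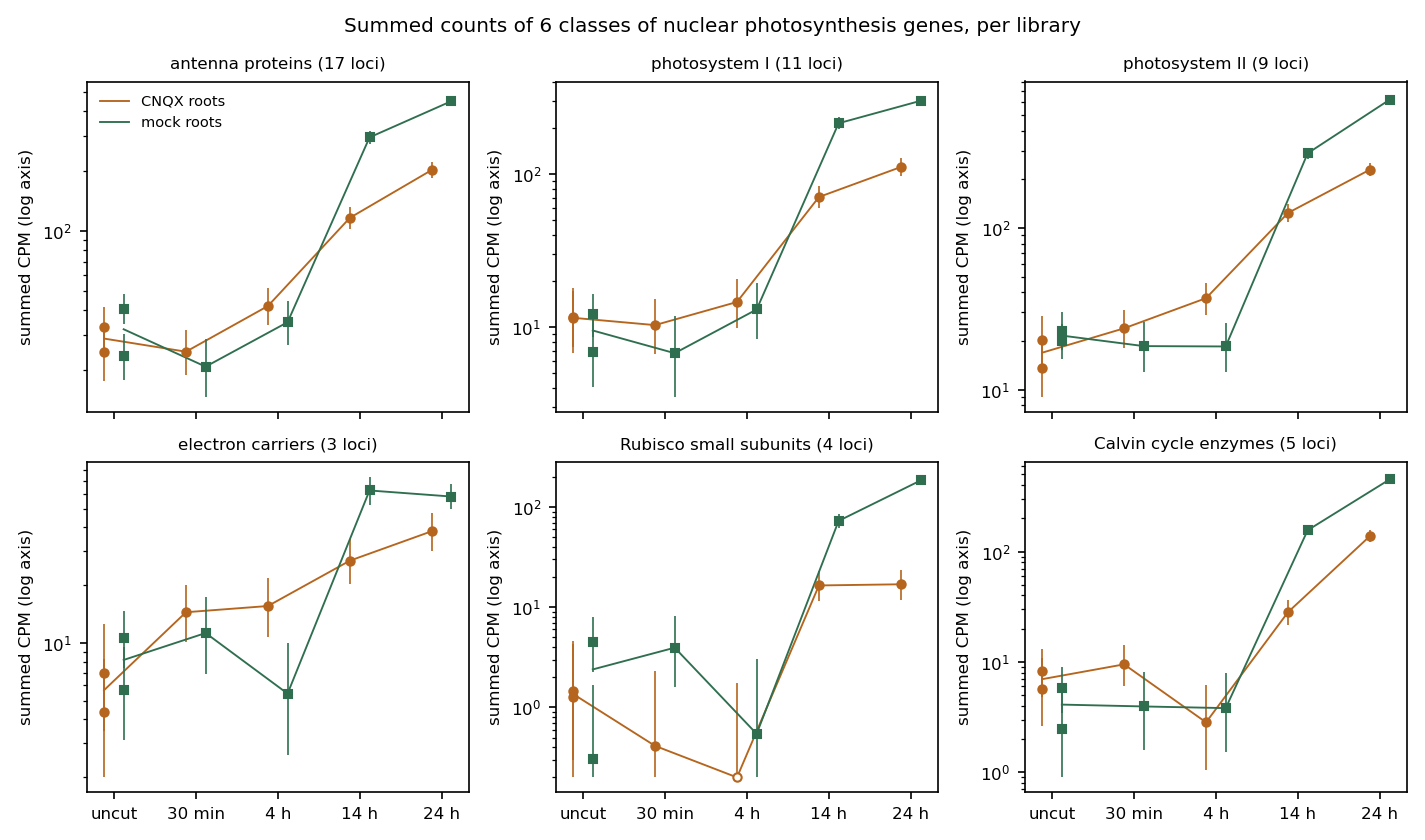
Summed level of each gene class in each library (CPM, log axis) against the stage of the root, from uncut through 30 min, 4 h, 14 h and 24 h. Circles are CNQX and squares mock libraries, open symbols at the foot of the axis mark a class with no count, bars are exact 95% intervals for counting error, and lines start at the mean of the uncut libraries. All classes are higher at 14 h and 24 h than before, with the 49 genes together at 382.7 and 736.7 CPM in CNQX roots and 1091 and 2064 CPM in mock roots.

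Gene by gene, the 4 late libraries all lay above the 8 others in 32 of the 49 genes, where 7.11% of all loci with a count had this order. They were 10 of 17 antenna, 9 of 11 photosystem I, 6 of 9 photosystem II, 2 of 3 carrier, 2 of 4 Rubisco and 3 of 5 Calvin cycle genes. With the counts of both treatments pooled, 46 of the 49 genes were at least 2-fold and 32 at least 10-fold higher in late cut roots than in uncut tips, 5 of the folds being lower bounds against the floor. The 3 others were PETE1, LHCB2.3 and LHCB1.4, which are named here after their values were seen. Without the mock 24 h library 44 genes were at least 2-fold and 27 at least 10-fold higher. The share of all loci that reached these folds was not counted. The mock 24 h library was the highest of the 12 in 38 genes and the mock 14 h library in 8. How many of all loci peaked in the mock 24 h library, which stood apart from the rest, was not counted. The 38 therefore cannot be read as particular to these genes. No count was found in any uncut tip for 6 genes.

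Counts were tested with edgeR's quasi-likelihood test over 16820 genes, with Benjamini-Hochberg adjustment and a threshold of 0.05. Of the 49 genes, 38 passed the filter on low counts, and 31 of these would not have passed without the late libraries. Except for SBPASE, which needed an uncut tip as well, these 31 had to differ. Their number therefore carries no weight of its own. Higher levels were called in 36 of the 38 in late against early cut roots, where 13.2% of all genes tested were called higher, and in 36 at 24 h against uncut, where 21.3% were. At 14 h against uncut 29 were called higher, against 13.2% of all genes, and for the mean of all 4 times against uncut (excision) 15 were, against 13.6%. None of the 38 was called lower, where 6.74% of all genes were in late against early cut roots, 12.1% at 24 h, 2.5% at 14 h and 11.9% for excision. DESeq2 called 32, 31, 25 and 17 genes higher in late against early cut roots, at 24 h, at 14 h and for excision, against 9.62%, 15.4%, 9.85% and 12.3% of the genes it tested. Without the filter all 49 genes were tested, and 38 were called higher in late against early cut roots, 38 at 24 h, 34 at 14 h and 17 for excision, where 10.9%, 16.4%, 11.2% and 10.6% of all genes were. The calls at 24 h went to 23 without the mock 24 h library, those at 14 h to 10 without the mock 14 h library and those for excision to 9 without the CNQX 4 h library.

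At the early times edgeR called none of the 38 genes with the settings above. At 30 min against uncut 0 of the 38 were called by edgeR, 1 had an unadjusted p under 0.05, DESeq2 called 0, and 3.23% of all genes were called higher and 1.2% lower. At 4 h the numbers were 0 by edgeR, 3 at an unadjusted p under 0.05, 0 by DESeq2, and 2.59% of all genes higher and 0.386% lower. Without the filter on low counts edgeR called 1 of the 49 genes at 30 min and 1 at 4 h, with the replicate block 1 of the 38 at 4 h, and without the mock 4 h library 2.

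**Figure D2:**
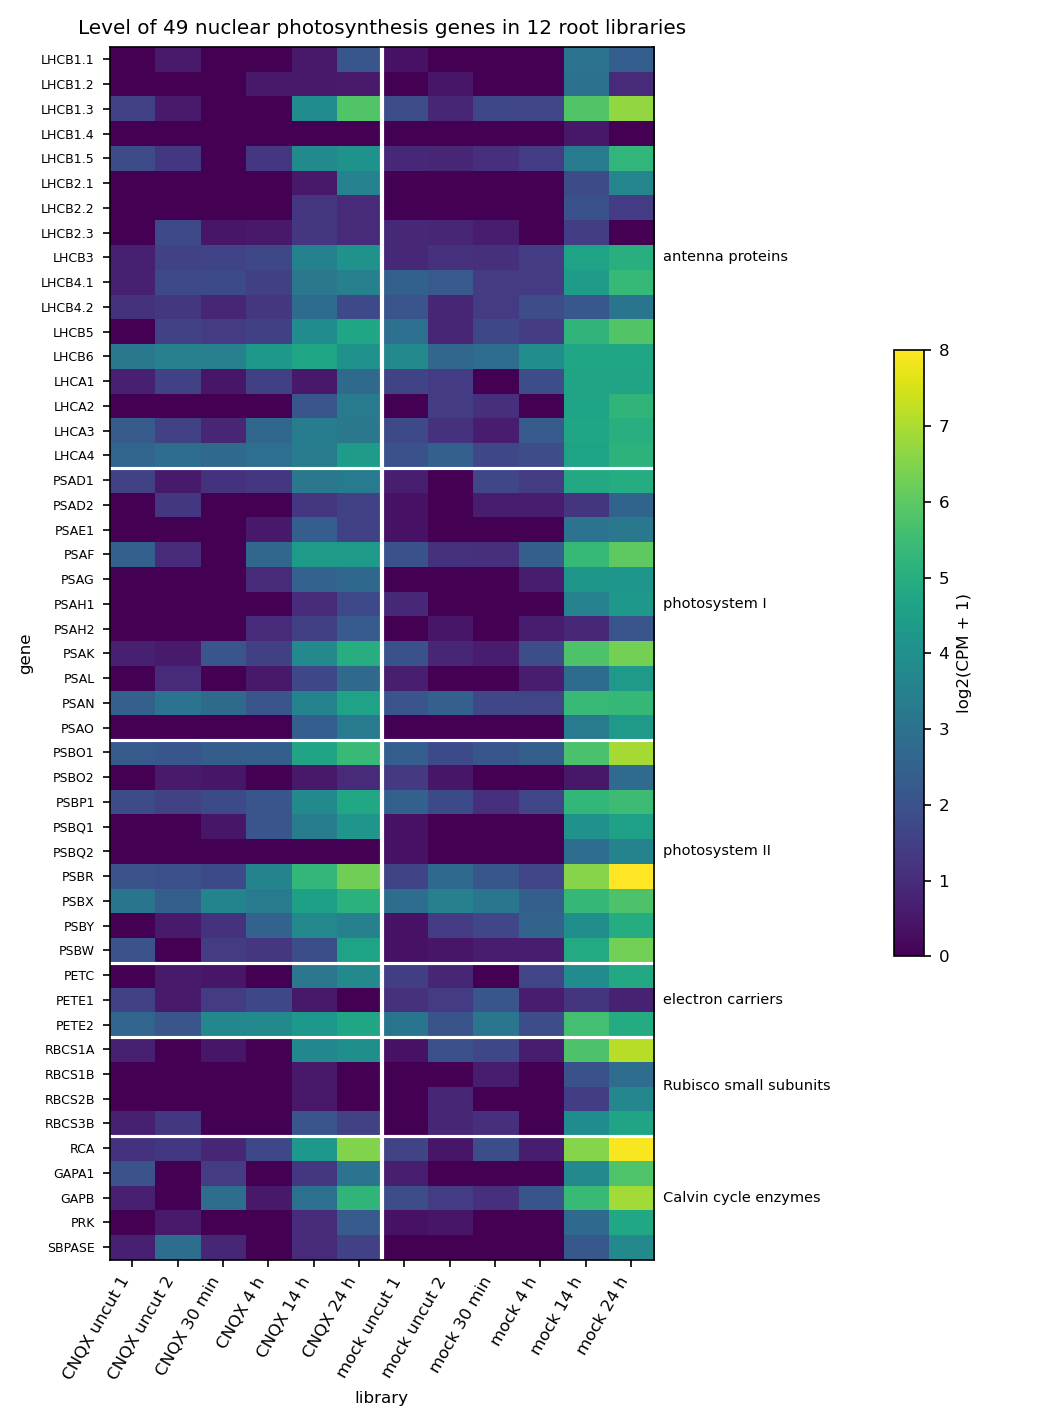
Level of each of the 49 genes in each of the 12 libraries (colour, log2 of CPM + 1, the scale ending at 8), with genes in rows by class, the CNQX libraries in the left block and the mock libraries in the right block. The 14 h and 24 h columns of both blocks are the brightest in most rows. The mock 24 h column, that of the library that stood apart, is the highest in 38 of the 49 rows.

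Antenna proteins together had 24.8 and 32.9 CPM in uncut CNQX roots and 24.8, 42, 116 and 202 CPM in cut CNQX roots. Their sum was 40.6 and 23.6 CPM in uncut mock roots and 20.8, 34.8, 295 and 448 CPM in cut mock roots. All late libraries lay above all others, the late mean at 8.71 times the uncut mean, or 6.71 times without the mock 24 h library. Among the 12 antenna genes tested, edgeR called 10 higher in late against early cut roots, 11 at 24 h, 9 at 14 h and 3 for excision, where 13.2%, 21.3%, 13.2% and 13.6% of all genes were. All of them but LHCB6 and LHCA4 had passed the filter only through the late libraries, so these counts carry no weight of their own.

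LHCB1.3 (AT1G29930), a copy of the most abundant protein of the trimeric antenna of photosystem II, had 1.9 and 0.484 CPM in uncut CNQX roots and 0, 0, 13.7 and 56.1 CPM in cut CNQX roots. In mock roots LHCB1.3 showed 2.73 and 0.815 CPM without the cut and 2.25, 2.18, 56.2 and 103 CPM after it. The late libraries did not overlap the others, and CNQX was below mock at 14 h and 24 h. The edgeR log2 fold change of LHCB1.3 was 5.84 ± 0.62 (SE, adjusted p = 9.22e-05) in late against early cut roots, 5.87 ± 0.61 (SE, adjusted p = 3.12e-05) at 24 h and 4.27 ± 0.62 (SE, adjusted p = 0.000616) at 14 h. LHCB1.5 (AT2G34420), whose exons all overlap other genes, had 2.54 and 1.45 CPM in uncut CNQX roots and 0, 1.42, 13.2 and 16 CPM in cut CNQX roots. In mock roots LHCB1.5 showed 0.908 and 0.815 CPM without the cut and 1.13, 1.63, 9.09 and 37.5 CPM after it. It also rose late, by a log2 fold change of 4.34 ± 0.64 (SE, adjusted p = 0.000705) against early cut roots, and at 14 h the CNQX library was the higher one. The remaining copies were scarce, with at most 7.36 CPM for LHCB1.1, 6.92 CPM for LHCB1.2 and 0.433 CPM for LHCB1.4, each in the mock 14 h library.

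Summed over the 5 loci, LHCB1 had 4.44 and 2.42 CPM in uncut CNQX roots and 0, 1.89, 27.8 and 75.9 CPM in cut CNQX roots. The LHCB1 sum was 3.94 and 2.04 CPM in uncut mock roots and 3.38, 3.81, 80.03 and 146 CPM in cut mock roots. Entered as 1 row in the table of all genes, LHCB1 rose by a log2 fold change of 5.33 ± 0.49 (SE, adjusted p = 5.54e-05) in late against early cut roots and of 5.18 ± 0.49 (SE, adjusted p = 1.56e-05) at 24 h in edgeR's test. LHCB2 is the partner of LHCB1 in the trimers, and its 3 loci together had 0 and 2.42 CPM in uncut CNQX roots and 0.413, 0.472, 3.29 and 12.6 CPM in cut CNQX roots. The LHCB2 sum was 0.908 and 0.815 CPM in uncut mock roots and 0.563, 0, 7.36 and 13.2 CPM in cut mock roots. As 1 row LHCB2 rose by 3.68 ± 0.82 (SE, adjusted p = 0.00474) at 24 h, while its value at 14 h did not pass (adjusted p = 0.0983). Most LHCB2 counts were of LHCB2.1, which had no count in the 8 uncut and early libraries and was at least 21-fold higher in late cut roots than in uncut tips, the bound being 14-fold without the mock 24 h library and 13.6-fold without uncut mock library 1.

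LHCB3 (AT5G54270), another subunit of the trimers, had 0.635 and 1.94 CPM in uncut CNQX roots and 2.06, 2.36, 10.4 and 16 CPM in cut CNQX roots. In mock roots LHCB3 showed 0.908 and 1.22 CPM without the cut and 1.13, 1.63, 23.8 and 31.9 CPM after it. It rose by a log2 fold change of 3.46 ± 0.53 (SE, adjusted p = 0.000864) in late against early cut roots, with no overlap between late libraries and the rest. The minor antenna proteins LHCB4, LHCB5 and LHCB6 sit singly between the trimers and the photosystem II core. LHCB4.1 (AT5G01530) had 0.635 and 2.42 CPM in uncut CNQX roots and 2.48, 1.89, 8.0 and 10.2 CPM in cut CNQX roots. In mock roots LHCB4.1 showed 4.54 and 3.67 CPM without the cut and 1.69, 1.63, 20.3 and 40.1 CPM after it. It rose by 3.16 ± 0.55 (SE, adjusted p = 0.00204) on the same scale, whereas LHCB4.2, with at most 7.57 CPM, passed in no comparison. LHCB5 (AT4G10340) had 0 and 1.94 CPM in uncut CNQX roots and 1.65, 1.89, 13.7 and 25.6 CPM in cut CNQX roots. In mock roots LHCB5 showed 6.66 and 0.815 CPM without the cut and 2.25, 1.63, 36.8 and 55.6 CPM after it. It rose by 4.08 ± 0.62 (SE, adjusted p = 0.000886) and its late libraries lay above all others.

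LHCB6 (AT1G15820), the last of these minor antenna proteins, had 8.25 and 10.2 CPM in uncut CNQX roots and 10.3, 18.4, 24.9 and 16.4 CPM in cut CNQX roots. In mock roots LHCB6 showed 12.7 and 5.29 CPM without the cut and 6.2, 14.2, 25.5 and 25 CPM after it. Its late libraries overlapped the 4 h library of CNQX roots, and its pooled late level was 2.46-fold (95% interval 1.91 to 3.18) that of uncut tips. LHCB6 was called at 14 h and at 24 h by edgeR, at log2 fold changes of 1.5 ± 0.43 (SE, adjusted p = 0.0325) and 1.33 ± 0.44 (SE, adjusted p = 0.0325), and missed the threshold in late against early cut roots, at 1.11 ± 0.37 (SE, adjusted p = 0.0511).

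The LHCA proteins are the antenna of photosystem I. LHCA2 (AT3G61470) had 0 and 0 CPM in uncut CNQX roots and 0, 0, 3.29 and 8.71 CPM in cut CNQX roots. In mock roots LHCA2 showed 0 and 1.63 CPM without the cut and 1.13, 0, 23.8 and 36.9 CPM after it. Its 4 counts in uncut tips and 192 in late cut roots gave a ratio of 47.3-fold (95% interval 18.2 to 175), or 28.9-fold without the mock 24 h library and 30.7-fold without uncut mock library 1. LHCA3 (AT1G61520) had 3.81 and 1.94 CPM in uncut CNQX roots and 0.826, 5.19, 9.41 and 8.22 CPM in cut CNQX roots. In mock roots LHCA3 showed 2.42 and 1.22 CPM without the cut and 0.563, 3.81, 25.1 and 32.2 CPM after it. Both rose in late against early cut roots, LHCA3 by a log2 fold change of 3.22 ± 0.58 (SE, adjusted p = 0.00246). LHCA4 was already present at 2.25 to 6.60 CPM in the 8 uncut and early libraries and reached 8.94 and 20.3 CPM in late CNQX roots and 23.8 and 34.9 CPM in late mock roots. LHCA1 was at 0.471 and 5.80 CPM in late CNQX roots and at 24.7 CPM in both late mock roots, the antenna gene with the lowest CNQX to mock ratio there, 0.126-fold (95% interval 0.0652 to 0.223), or 0.235-fold without the CNQX 14 h library and 0.0191-fold without the CNQX 24 h library.

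Subunits of photosystem I together had 11.4 and 11.6 CPM in uncut CNQX roots and 10.3, 14.6, 71.1 and 112 CPM in cut CNQX roots. Their sum was 12.1 and 6.92 CPM in uncut mock roots and 6.76, 13.1, 216 and 303 CPM in cut mock roots. The late mean was 16.7 times the uncut mean, or 12.6 times without the mock 24 h library, and no late library overlapped the rest. All 9 of the photosystem I genes tested were called higher by edgeR in late against early cut roots and at 24 h, 7 were at 14 h and 2 for excision. Of all genes 13.2%, 21.3%, 13.2% and 13.6% were called higher in these 4 comparisons. Except for PSAN, the 9 had passed the filter only through the late libraries, so their number carries no weight of its own.

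PSAF (AT1G31330), which takes part in docking plastocyanin on the lumen side, had 4.44 and 0.968 CPM in uncut CNQX roots and 0, 5.19, 19.8 and 18.9 CPM in cut CNQX roots. In mock roots PSAF showed 3.03 and 1.22 CPM without the cut and 1.13, 4.35, 39.8 and 63.2 CPM after it. It rose by a log2 fold change of 4.41 ± 0.60 (SE, adjusted p = 0.000429) in late against early cut roots and was not called for excision over all 4 times (1.59 ± 0.61 (SE, adjusted p = 0.0729)). PSAK (AT1G30380), a membrane subunit at the edge that binds antenna proteins, had 0.635 and 0.484 CPM in uncut CNQX roots and 3.3, 1.89, 12.7 and 30.5 CPM in cut CNQX roots. In mock roots PSAK showed 3.03 and 0.815 CPM without the cut and 0.563, 2.72, 54.1 and 80.3 CPM after it. It rose by 4.16 ± 0.57 (SE, adjusted p = 0.000429) in late against early cut roots, by 5.63 ± 0.66 (SE, adjusted p = 6.52e-05) at 24 h and by 3.09 ± 0.63 (SE, adjusted p = 0.00508) for excision. PSAG (AT1G55670), the counterpart of PSAK on the other side, had 0 and 0 CPM in uncut CNQX roots and 0, 0.943, 4.71 and 5.32 CPM in cut CNQX roots. In mock roots PSAG showed 0 and 0 CPM without the cut and 0, 0.544, 17.7 and 17.4 CPM after it. With no count in uncut tips and 115 in late cut roots, PSAG was at least 37.8-fold higher there (at least 24.5-fold without uncut mock library 1), though 61.4% of its exons are shared with another gene.

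PSAD and PSAE form the stromal side at which ferredoxin is reduced. PSAD1 (AT4G02770) had 1.9 and 0.484 CPM in uncut CNQX roots and 1.24, 1.42, 8.0 and 8.71 CPM in cut CNQX roots. In mock roots PSAD1 showed 0.606 and 0 CPM without the cut and 2.25, 1.63, 27.7 and 29.9 CPM after it. It was called for excision as well (2.92 ± 0.65 (SE, adjusted p = 0.00777)) and rose by 3.41 ± 0.58 (SE, adjusted p = 0.00186) in late against early cut roots. PSAD2 and PSAE1 stayed at or under 8.23 CPM in every library, and 25 and 55 of their counts came from late cut roots, against 4 and 1 from uncut tips. PSAN (AT5G64040), a lumen subunit, had 4.44 and 7.26 CPM in uncut CNQX roots and 5.78, 3.3, 10.8 and 23.7 CPM in cut CNQX roots. In mock roots PSAN showed 3.33 and 4.48 CPM without the cut and 2.25, 2.18, 41.1 and 39.2 CPM after it. It rose by 3.07 ± 0.51 (SE, adjusted p = 0.00165) in late against early cut roots.

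PSAH, PSAL and PSAO lie where photosystem I can bind the mobile antenna. PSAH1 (AT3G16140) had 0 and 0 CPM in uncut CNQX roots and 0, 0, 0.942 and 2.42 CPM in cut CNQX roots. In mock roots PSAH1 showed 0.908 and 0 CPM without the cut and 0, 0, 10.8 and 18.1 CPM after it. Almost all its late counts were from mock roots, and its CNQX to mock ratio in late cut roots was 0.112-fold (95% interval 0.0435 to 0.241), or 0.0630-fold without the CNQX 24 h library. PSAL (AT4G12800) had 0 and 0.968 CPM in uncut CNQX roots and 0, 0.472, 2.35 and 5.8 CPM in cut CNQX roots. In mock roots PSAL showed 0.606 and 0 CPM without the cut and 0, 0.544, 6.06 and 19.1 CPM after it. Late libraries did not overlap the rest for either gene, by a narrow margin for PSAH1, whose lowest late value of 0.942 CPM stood beside 0.908 CPM in an uncut mock tip. PSAO (AT1G08380) had 0 and 0 CPM in uncut CNQX roots and 0, 0, 4.24 and 8.71 CPM in cut CNQX roots. In mock roots PSAO showed 0 and 0 CPM without the cut and 0, 0, 9.09 and 19.1 CPM after it. PSAO was not detected before 14 h and was at least 34.8-fold higher in late cut roots than in uncut tips, the bound being 23.1-fold without the mock 24 h library and 22.6-fold without uncut mock library 1. PSAH2 reached 3.87 CPM and was the photosystem I gene in which CNQX was above mock at 24 h.

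**Figure D3:**
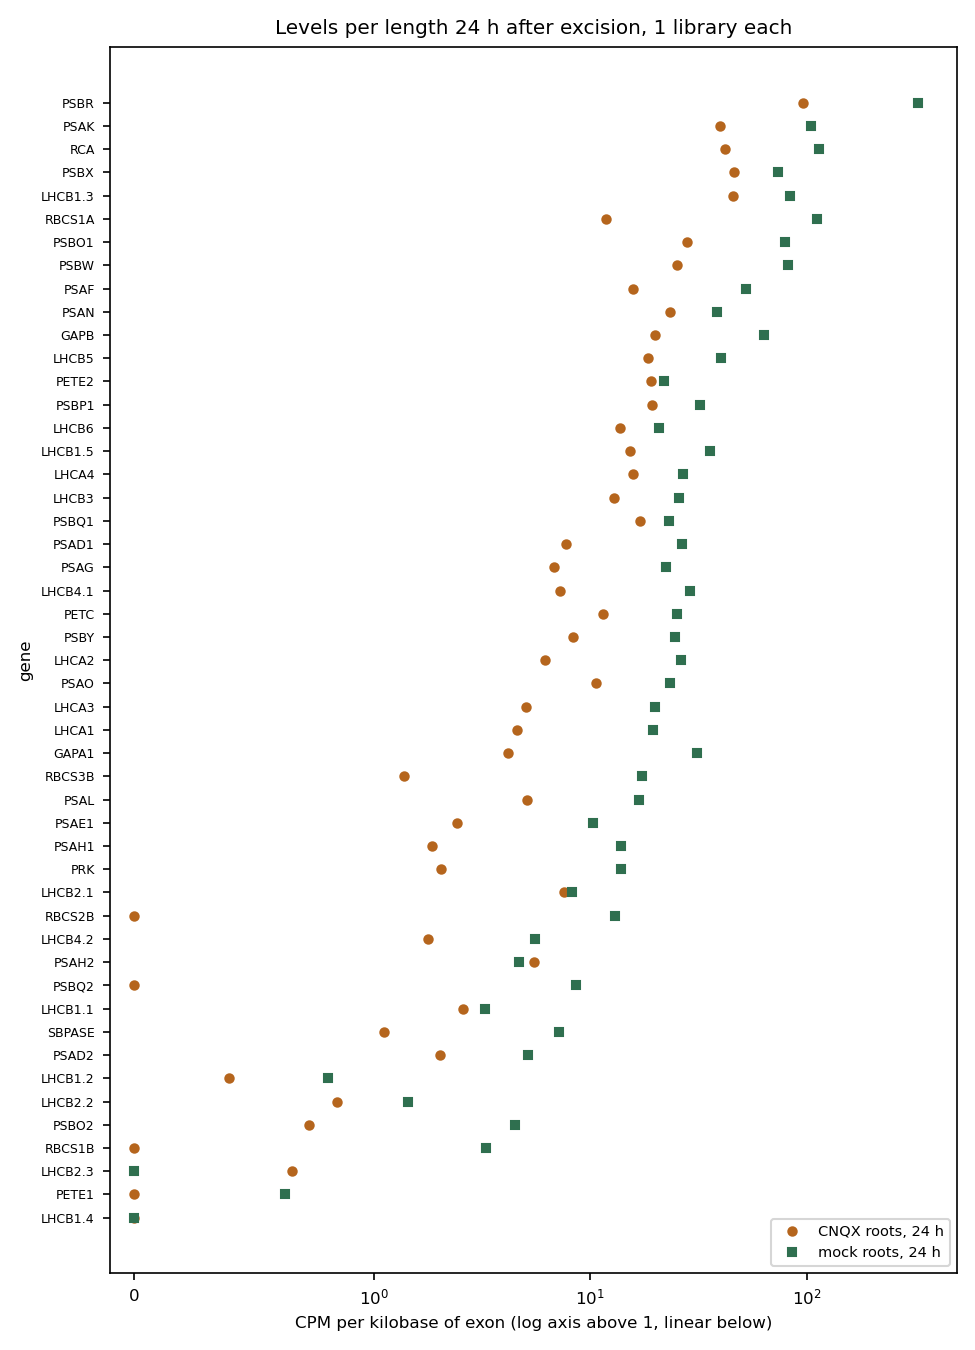
Level of each gene 24 h after excision, divided by exon length (CPM per kilobase, log axis above 1 and linear below), in the CNQX library (circles) and the mock library (squares), with genes ordered by their mean over the 4 late libraries. PSBR leads with a late mean of 147.6 CPM per kilobase, followed by PSAK at 57.7 and RCA at 52.2, and PSAH2 and LHCB2.3 are the genes in which the CNQX library is the higher one.

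Subunits of photosystem II together had 20.3 and 13.6 CPM in uncut CNQX roots and 23.9, 36.8, 124 and 229 CPM in cut CNQX roots. Their sum was 19.99 and 23.2 CPM in uncut mock roots and 18.6, 18.5, 289 and 621 CPM in cut mock roots. The late mean was 16.4 times the uncut mean, or 11.1 times without the mock 24 h library. This class had the most calls for excision over all 4 times: 7 of 8 genes tested were called for excision, and 8, 7 and 7 were called higher by edgeR in late against early cut roots, at 24 h and at 14 h. For all genes the shares called higher were 13.6%, 13.2%, 21.3% and 13.2% in that order. PSBO1, PSBP1, PSBQ1, PSBQ2 and PSBW had passed the filter only through the late libraries, so calls of these genes carry no weight of their own.

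PSBR (AT1G79040), a small lumen-side subunit that stabilizes the water-splitting complex, had 3.17 and 2.9 CPM in uncut CNQX roots and 2.48, 10.8, 38.1 and 75.5 CPM in cut CNQX roots. In mock roots PSBR showed 2.12 and 5.7 CPM without the cut and 3.38, 2.18, 93.5 and 256 CPM after it. Per exon length it had the highest late level of the 49 genes, and it rose by a log2 fold change of 4.48 ± 0.56 (SE, adjusted p = 0.000239) in late against early cut roots and 5.57 ± 0.61 (SE, adjusted p = 4e-05) at 24 h. PSBO1 (AT5G66570), the manganese-stabilizing protein of the water-splitting complex, had 3.81 and 3.39 CPM in uncut CNQX roots and 4.13, 4.25, 24.5 and 42.1 CPM in cut CNQX roots. In mock roots PSBO1 showed 4.24 and 2.44 CPM without the cut and 3.38, 4.35, 51.5 and 120.1 CPM after it. The 8 uncut and early libraries were all within 2.44 to 4.35 CPM, and PSBO1 rose by 3.75 ± 0.38 (SE, adjusted p = 8.58e-05) in late against early cut roots, with 4.52 ± 0.42 (SE, adjusted p = 1.39e-05) at 24 h. Its copy PSBO2 was at 0 to 1.51 CPM in 11 libraries and at 5.92 CPM in the mock 24 h library.

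PSBP and PSBQ complete the water-splitting side. PSBP1 (AT1G06680) had 2.54 and 1.94 CPM in uncut CNQX roots and 2.48, 3.3, 13.2 and 26.1 CPM in cut CNQX roots. In mock roots PSBP1 showed 4.54 and 2.44 CPM without the cut and 1.13, 2.18, 38.5 and 43.4 CPM after it. It rose by 3.71 ± 0.49 (SE, adjusted p = 0.000327) in late against early cut roots. PSBQ1 (AT4G21280) had 0 and 0 CPM in uncut CNQX roots and 0.413, 3.3, 9.41 and 16.9 CPM in cut CNQX roots. In mock roots PSBQ1 showed 0.303 and 0 CPM without the cut and 0, 0, 16.4 and 23 CPM after it. With 1 count in all 4 uncut tips together, it rose by 4.67 ± 0.85 (SE, adjusted p = 0.00324) in late against early cut roots. PSBQ2 (AT4G05180) had no count in any CNQX root. In mock roots PSBQ2 showed 0.303 and 0 CPM without the cut and 0, 0, 6.49 and 10.9 CPM after it. All 48 late counts of PSBQ2 were from mock roots.

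PSBX, PSBY and PSBW are small membrane subunits. PSBX (AT2G06520) had 7.62 and 4.36 CPM in uncut CNQX roots and 11.2, 8.96, 22.6 and 33.4 CPM in cut CNQX roots. In mock roots PSBX showed 6.36 and 10.2 CPM without the cut and 7.88, 4.35, 39.4 and 53.3 CPM after it. It was detected in every uncut tip, at 4.36 to 10.2 CPM, and rose by 2.29 ± 0.40 (SE, adjusted p = 0.00212) in late against early cut roots. PSBY (AT1G67740) had 0 and 0.484 CPM in uncut CNQX roots and 1.24, 4.72, 12.7 and 10.2 CPM in cut CNQX roots. In mock roots PSBY showed 0.303 and 1.63 CPM without the cut and 2.25, 4.9, 14.7 and 29.9 CPM after it. Both 4 h libraries of PSBY lay above all uncut and 30 min libraries, and both late times lay above 4 h; the change at 4 h was not called (adjusted p = 0.069), and that for excision was (3.63 ± 0.68 (SE, adjusted p = 0.00352)). PSBW (AT2G30570) had 3.17 and 0 CPM in uncut CNQX roots and 1.65, 1.42, 2.82 and 24.2 CPM in cut CNQX roots. In mock roots PSBW showed 0.303 and 0.407 CPM without the cut and 0.563, 0.544, 28.6 and 78.3 CPM after it. It rose by 4.38 ± 0.79 (SE, adjusted p = 0.00245) in late against early cut roots, but its 14 h CNQX library lay below an uncut CNQX tip.

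Electron carriers together had 6.98 and 4.36 CPM in uncut CNQX roots and 14.4, 15.6, 26.8 and 38.2 CPM in cut CNQX roots. Their sum was 10.6 and 5.7 CPM in uncut mock roots and 11.3, 5.44, 62.3 and 57.9 CPM in cut mock roots. The late mean was 6.70 times the uncut mean, or 6.14 times without the mock 24 h library. PETC (AT4G03280), the Rieske iron-sulfur protein of the cytochrome b6f complex, had 0 and 0.484 CPM in uncut CNQX roots and 0.413, 0, 8.0 and 12.6 CPM in cut CNQX roots. In mock roots PETC showed 1.82 and 0.815 CPM without the cut and 0, 2.18, 13.4 and 27.6 CPM after it. It rose by 4.82 ± 0.78 (SE, adjusted p = 0.00128) in late against early cut roots. PETE2 (AT1G20340), the main plastocyanin of leaves, had 5.08 and 3.39 CPM in uncut CNQX roots and 12.4, 13.2, 18.4 and 25.6 CPM in cut CNQX roots. In mock roots PETE2 showed 7.57 and 3.26 CPM without the cut and 7.88, 2.72, 47.6 and 29.6 CPM after it. It was called for excision too (1.80 ± 0.47 (SE, adjusted p = 0.0165)) and rose by 1.89 ± 0.50 (SE, adjusted p = 0.0186) in late against early cut roots. The other plastocyanin gene, PETE1 (AT1G76100), had 6 counts in late cut roots and 12 in uncut tips, a ratio of 0.493-fold (95% interval 0.152 to 1.42), and 6 against 16 in early cut roots, 0.321-fold (95% interval 0.103 to 0.862), or 0.325-fold and 0.211-fold without the mock 14 h library; it did not pass the filter on low counts.

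Rubisco small subunits, which together with the plastid-encoded large subunit make up the carbon-fixing enzyme, had a sum of 1.27 and 1.45 CPM in uncut CNQX roots and 0.413, 0, 16.5 and 16.9 CPM in cut CNQX roots. The sum was 0.303 and 4.48 CPM in uncut mock roots and 3.94, 0.544, 72.7 and 184 CPM in cut mock roots. The late mean was 38.7 times the uncut mean, 72.0 times without uncut mock library 2 and 18.9 times without the mock 24 h library, which held more counts of this class than all other libraries together. As 1 row, the small subunits rose by a log2 fold change of 6.43 ± 0.68 (SE, adjusted p = 9.48e-05) in late against early cut roots, 5.14 ± 0.61 (SE, adjusted p = 7.07e-05) at 24 h and 4.29 ± 0.62 (SE, adjusted p = 0.000555) at 14 h in edgeR's test.

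RBCS1A (AT1G67090), the copy on chromosome 1, had 0.635 and 0 CPM in uncut CNQX roots and 0.413, 0, 12.2 and 15 CPM in cut CNQX roots. In mock roots RBCS1A showed 0.303 and 2.85 CPM without the cut and 2.25, 0.544, 54.1 and 141 CPM after it. It rose by 6.32 ± 0.66 (SE, adjusted p = 9.06e-05) in late against early cut roots and 6.20 ± 0.67 (SE, adjusted p = 3.63e-05) at 24 h. RBCS3B (AT5G38410) had 0.635 and 1.45 CPM in uncut CNQX roots and 0, 0, 3.29 and 1.94 CPM in cut CNQX roots. In mock roots RBCS3B showed 0 and 0.815 CPM without the cut and 1.13, 0, 13.8 and 24.4 CPM after it. It rose by 5.92 ± 1.08 (SE, adjusted p = 0.00318) in late against early cut roots. RBCS1B and RBCS2B were below the filter, with 27 and 42 counts in late cut roots, of which 1 each came from CNQX roots.

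Calvin cycle enzymes together had 5.71 and 8.23 CPM in uncut CNQX roots and 9.5, 2.83, 28.2 and 138 CPM in cut CNQX roots. Their sum was 5.75 and 2.44 CPM in uncut mock roots and 3.94, 3.81, 156 and 451 CPM in cut mock roots. The late mean was 35.0 times the uncut mean, or 19.4 times without the mock 24 h library. All 5 were called higher by edgeR in late against early cut roots and at 24 h, and 2 were at 14 h and for excision, RCA and GAPB in each case. Shares of all genes called higher were 13.2%, 21.3%, 13.2% and 13.6% in the same comparisons. None of the 5 would have passed the filter without the late libraries, so their number carries no weight of its own. SBPASE reached the cutoff in 1 late library and in 1 uncut CNQX tip.

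RCA (AT2G39730), Rubisco activase, which frees Rubisco of bound sugar phosphates, had 1.27 and 1.45 CPM in uncut CNQX roots and 0.826, 2.36, 18.4 and 88.5 CPM in cut CNQX roots. In mock roots RCA showed 2.12 and 0.407 CPM without the cut and 2.82, 0.544, 92.6 and 239.6 CPM after it. Late and other libraries were far apart, and RCA rose by a log2 fold change of 6.84 ± 0.57 (SE, adjusted p = 8.07e-06) at 24 h, 4.99 ± 0.58 (SE, adjusted p = 0.000131) at 14 h and 5.73 ± 0.54 (SE, adjusted p = 6.8e-05) in late against early cut roots. GAPB (AT1G42970), a subunit of the plastid glyceraldehyde phosphate dehydrogenase, had 0.635 and 0 CPM in uncut CNQX roots and 6.19, 0.472, 6.59 and 36.8 CPM in cut CNQX roots. In mock roots GAPB showed 2.73 and 1.63 CPM without the cut and 1.13, 3.26, 42 and 118 CPM after it. It rose by 6.40 ± 0.78 (SE, adjusted p = 8.5e-05) at 24 h, although its 14 h value in CNQX roots was close to the 30 min value. GAPA1 (AT3G26650), the other subunit, had 3.17 and 0 CPM in uncut CNQX roots and 1.65, 0, 1.41 and 7.25 CPM in cut CNQX roots. In mock roots GAPA1 showed 0.606 and 0 CPM without the cut and 0, 0, 12.6 and 54.6 CPM after it. It rose by 4.93 ± 1.05 (SE, adjusted p = 0.00421) at 24 h, and its 14 h CNQX library overlapped the uncut tips.

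PRK (AT1G32060), phosphoribulokinase, which renews the sugar that Rubisco carboxylates, had 0 and 0.484 CPM in uncut CNQX roots and 0, 0, 0.942 and 3.87 CPM in cut CNQX roots. In mock roots PRK showed 0.303 and 0.407 CPM without the cut and 0, 0, 5.62 and 26.3 CPM after it. It was under 1 CPM in CNQX roots up to 14 h, and rose by 4.97 ± 0.89 (SE, adjusted p = 0.0019) at 24 h. SBPASE (AT3G55800), sedoheptulose bisphosphatase, an enzyme of the same regeneration part, had 0.635 and 6.29 CPM in uncut CNQX roots and 0.826, 0, 0.942 and 1.94 CPM in cut CNQX roots. In mock roots SBPASE showed 0 and 0 CPM without the cut and 0, 0, 3.46 and 12.5 CPM after it. Late and other libraries overlapped because of 1 uncut CNQX tip, and the call at 24 h was close to the threshold (3.80 ± 1.31 (SE, adjusted p = 0.0454)).

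CNQX and mock roots were compared at each time between single libraries. The summed level of the 49 genes in CNQX roots was 1.28 (95% interval 1.01 to 1.62) of that in mock roots at 30 min, 1.47 (95% interval 1.19 to 1.82) at 4 h, 0.351 (95% interval 0.324 to 0.380) at 14 h and 0.357 (95% interval 0.337 to 0.378) at 24 h. At both late times the 49 genes thus had a lower summed CPM in CNQX than in mock roots, and at both early times a higher one. The same order held in single genes: among those with at least 10 counts in the pair, CNQX was below mock in 38 of 40 at 14 h, where 60.5% of all such loci were, and in 43 of 44 at 24 h, where 57.3% were. A level at least 2-fold lower in CNQX was seen in 32 genes at 14 h, against 15.8% of loci, and in 32 at 24 h, against 21.7%. At 30 min 2 of 9 genes and at 4 h 2 of 11 were lower in CNQX, where 40.2% and 51.6% of loci were. The genes higher in CNQX at a late time were LHCB1.5 and LHCB4.2 at 14 h, and PSAH2 at 24 h.

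By class, the CNQX to mock ratio at 14 h was 0.395 (95% interval 0.340 to 0.457) for antenna proteins, 0.329 (95% interval 0.273 to 0.396) for photosystem I and 0.428 (95% interval 0.369 to 0.494) for photosystem II. It was 0.431 (95% interval 0.311 to 0.589) for carriers, 0.227 (95% interval 0.153 to 0.328) for Rubisco small subunits and 0.181 (95% interval 0.135 to 0.238) for Calvin cycle enzymes. Carbon fixation genes thus had the lowest ratios, though the Rubisco interval overlapped those of photosystem I and carriers, and intervals of the 4 other classes overlapped one another. At 24 h, a pair that includes the mock library that stood apart, the ratios were 0.451 (95% interval 0.404 to 0.504) for antenna proteins, 0.369, 0.369 and 0.660 for photosystem I, photosystem II and carriers, 0.0920 (95% interval 0.0635 to 0.130) for Rubisco small subunits and 0.307 for Calvin cycle enzymes. The Rubisco class had the lowest value at 24 h, whereas at 14 h the Calvin cycle enzymes had it, with intervals of these classes that overlapped.

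**Figure D4:**
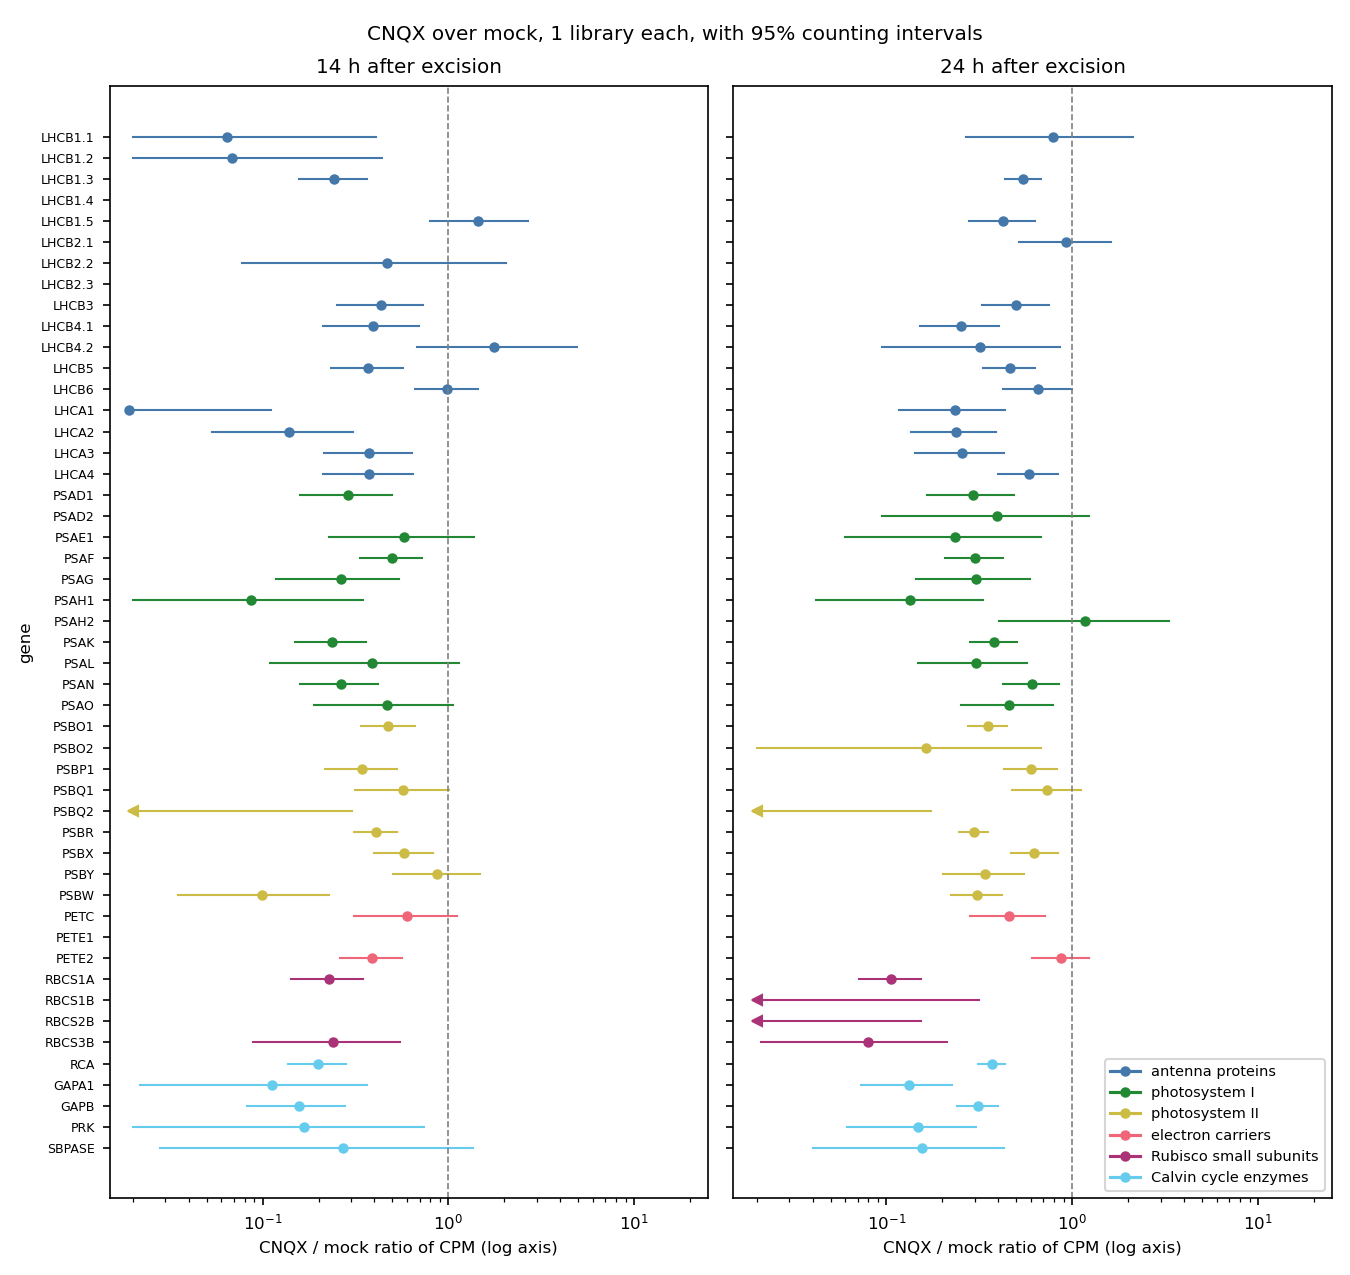
Ratio of CNQX to mock CPM (log axis) of each gene with at least 10 counts in the pair, at 14 h (left) and 24 h (right), coloured by class, with 1 library per treatment and time. Bars are exact 95% intervals for counting error, ended at 0.02 on the left, and arrows mark genes with no count in CNQX roots. Points lie below 1 in 38 of 40 genes at 14 h and in 43 of 44 at 24 h.

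Both late CNQX libraries were below both late mock libraries in 40 of the 49 genes, an order found in 20.5% of all loci with a count. Pooled over both late times, the 95% interval of the CNQX to mock ratio, for counting error only, lay below 1 in 40 genes and above 1 in 0. The share of all loci with such an interval was not counted. In the single pairs 60.5% of loci at 14 h and 57.3% at 24 h were lower in CNQX, so the 40 genes have no matching share beside them. Across libraries the contrast between CNQX and mock was not called in any gene that passed the filter on low counts. In the fit with separate early and late CNQX effects, chosen after the data had been seen, 38 of the 38 tested genes had a negative log2 fold change for CNQX in late cut roots and 19 an unadjusted p under 0.05 (LHCB6, LHCB1.5 and LHCB4.2 turned positive without either 24 h library, and LHCB2.1 without the mock 14 h library), but 0 passed, as did 0% of all genes, and the lowest adjusted p among the 38 was 0.408. Of these 38, 31 would not have passed the filter on low counts without the late libraries. PSAE1, PSAH1, PSBQ2, RBCS3B and PRK reached its cutoff in the 2 late mock libraries alone, so a lower CNQX level was built in for them. The counts of 38 and 19 therefore carry no weight of their own. Without the filter on low counts 5 of the 49 were called lower, against 0.206% of all genes. DESeq2 could not decide here, because it gave 0 of the 49 an adjusted p. It tested 1240 genes in all and called 6 of them lower. RBCS1A had -2.58 ± 0.63 (SE, adjusted p = 0.408), LHCA1 -3.17 ± 0.91 (SE, adjusted p = 0.42), GAPB -2.01 ± 0.65 (SE, adjusted p = 0.42), RCA -1.75 ± 0.52 (SE, adjusted p = 0.42) and LHCB6 -0.20 ± 0.50 (SE, adjusted p = 0.932) in that edgeR test.

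For CNQX over all cut roots edgeR called 0 of the 38, with 10 at an unadjusted p under 0.05, and for uncut tips 0, with 1 at an unadjusted p under 0.05; DESeq2 called 0 in both. For the difference between the CNQX effect in cut and in uncut roots edgeR called 0, with 2 at an unadjusted p under 0.05. For the early CNQX effect it called 0, with 2, and for the late minus the early CNQX effect 0, with 9. In all of these 0% of the genes tested were called in either direction. The counts at an unadjusted p have no share of all genes beside them here. They rest on the same 38 genes, 31 of which needed the late libraries to pass the filter, so they carry no weight of their own.

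Genes that act beside the 49 were counted from lists of pathway genes. Of 13 genes of chlorophyll synthesis 10 were tested, and 7 were called higher by edgeR in late against early cut roots and 0 lower, where 13.2% and 6.74% of all genes were. CHLH, a subunit of magnesium chelatase, rose by a log2 fold change of 2.67 ± 0.42 (SE, adjusted p = 0.00117), CHLI1, another subunit, by 1.94 ± 0.30 (SE, adjusted p = 0.000947), and CRD1, which closes the extra ring of chlorophyll, by 3.49 ± 0.58 (SE, adjusted p = 0.00158). HEMA1, at the entry of the pathway, was called for excision (1.51 ± 0.35 (SE, adjusted p = 0.00991)) and not for late against early. The summed level of the list was 3.79 times higher in late cut roots than in uncut tips, less than for any of the 6 classes above. Of 25 other photosynthesis genes 20 were tested and 15 called higher in the same comparison. CP12-1, a regulator that binds PRK and the dehydrogenase, rose by 4.62 ± 0.45 (SE, adjusted p = 7.34e-05), PSBS, a sensor of excess light, by 2.64 ± 0.38 (SE, adjusted p = 0.000658) and ATPC1, a subunit of the plastid ATP synthase, by 3.17 ± 0.47 (SE, adjusted p = 0.000705).

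Of 15 regulators of photosynthesis genes 7 were tested, and 4 were called higher in late against early cut roots and 0 lower, where 13.2% of all genes were called higher and 6.74% lower. They were led by HYH, a relative of the light response factor HY5, at 1.72 ± 0.36 (SE, adjusted p = 0.00572), GLK2, an activator of antenna and chlorophyll genes, at 2.88 ± 0.62 (SE, adjusted p = 0.00686), and SIG5, a sigma factor of the plastid RNA polymerase, at 1.58 ± 0.43 (SE, adjusted p = 0.0206) in edgeR's test. SIG5 was called at 4 h already (2.81 ± 0.53 (SE, adjusted p = 0.0146)), when none of the 38 tested genes was. HY5 was called for excision (0.84 ± 0.23 (SE, adjusted p = 0.019)). GLK1, the relative of GLK2 that dominates in leaves, had counts only in mock roots, 2 at 14 h and 7 at 24 h. Root-type plastid redox enzymes, which carry electrons to ferredoxin in plastids that are not green, gave 0 calls among RFNR1, RFNR2 and FD3 in edgeR's tests, with 0 at an unadjusted p under 0.05 in late against early cut roots, and their summed late level was 0.906 times the uncut level.

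Marker lists of cell types were read beside these results. Of 12 leaf and shoot epidermis markers, FIL, YAB5, MUTE, FAMA, EPF1 and GL1 were at 0 in every library, and the list summed to 2.42 to 17.8 CPM in late cut roots, 0.826 to 5.19 CPM in early cut roots and 0 to 1.82 CPM in uncut tips. The highest of these sums was that of the mock 24 h library, with 13 counts of YAB3, 16 of PDF1 and 18 of CER1, and the part of such tissue in that library was not tested. Green tissue markers of photorespiration summed to 2.60 times the uncut level in late cut roots, and 2 of 4 tested were called higher in late against early cut roots, where 13.2% of all genes were. Most of the late counts of this list were of 1 gene, CAT2, so the sum mainly follows that gene. Root meristem and cap markers together had counts in all libraries, and their sum was lower in late cut roots, at 50.4 to 138.0 CPM, than in uncut tips, at 167.5 to 247.3 CPM. Of the 8 listed, 4 had a count in each late mock library and 6 or 7 in the late CNQX libraries, against 7 or 8 in uncut tips. Markers of differentiated endodermis summed to 44.8 times the uncut level in late cut roots, or 27.4 times without the mock 14 h library, with 69.6 times at 14 h and 19.99 times at 24 h. Of these markers 6 of 7 tested were called higher in late against early cut roots, and of 10 clock genes 8 were tested and 2 called higher, where 13.2% of all genes were. The part of these shifts in the levels of the 49 genes was not tested.

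**Figure D5:**
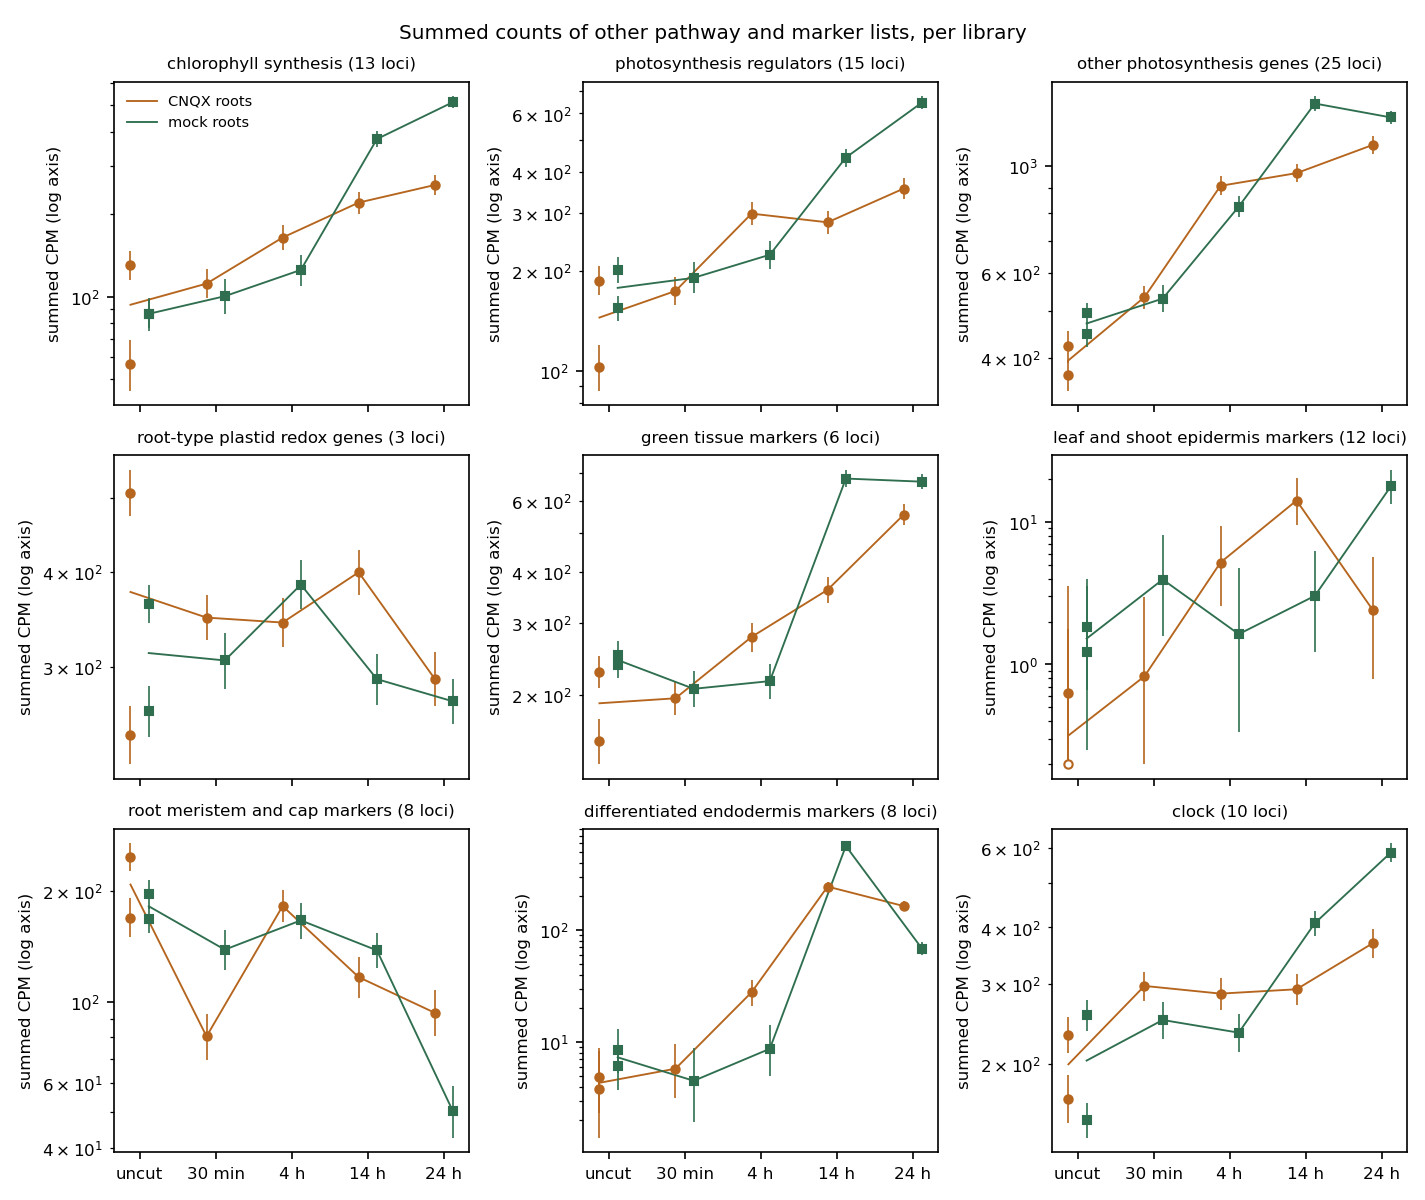
Summed level of the other gene lists and marker lists (CPM, log axis) in each library by stage, with circles for CNQX and squares for mock, an open symbol at the foot for no count, exact 95% intervals for counting error as bars and lines from the mean of the uncut libraries. Differentiated endodermis markers and chlorophyll synthesis genes are higher at 14 h and 24 h than in uncut tips, and root-type plastid redox genes stay near their uncut level, at 0.906 times it in late cut roots.

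The 250 bases before the annotated start of each gene were searched on both strands for 3 motifs often named for light-regulated genes, and 4 of them are printed because these genes rose together late: RCA and PSAK were among the highest per exon length, and LHCB4.1 and PRK hold the G-box. The G-box CACGTG was found in 9 of the 49 genes (18.4%) and in 6.49% of 27443 promoters of the genome. The I-box GATAAG was in 13 (26.5%), against 12.3% of promoters, and CCAAT in 33 (67.3%), against 46.0%. The windows, in RefSeq TAIR10.1 and read 5′ to 3′ towards the gene, are those of RCA at chr2:16573693-16573942 on the minus strand, PSAK at chr1:10721933-10722182 on the plus strand, LHCB4.1 at chr5:208616-208865 on the plus strand and PRK at chr1:11531949-11532198 on the plus strand. None of these windows overlaps an annotated gene, and capitals mark the motifs, which appear as their reverse complement where they lie on the other strand, CTTATC for the I-box and ATTGG for CCAAT.
RCA: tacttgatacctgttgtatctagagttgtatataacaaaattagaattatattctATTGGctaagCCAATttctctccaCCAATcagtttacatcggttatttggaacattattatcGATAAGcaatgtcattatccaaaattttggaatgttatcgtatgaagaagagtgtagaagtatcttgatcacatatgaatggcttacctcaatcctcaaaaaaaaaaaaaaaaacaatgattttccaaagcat
PSAK: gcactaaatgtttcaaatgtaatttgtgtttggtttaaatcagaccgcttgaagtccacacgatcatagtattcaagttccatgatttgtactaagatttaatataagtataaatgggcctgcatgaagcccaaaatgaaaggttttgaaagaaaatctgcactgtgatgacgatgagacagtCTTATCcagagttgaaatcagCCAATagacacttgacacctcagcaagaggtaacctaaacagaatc
LHCB4.1: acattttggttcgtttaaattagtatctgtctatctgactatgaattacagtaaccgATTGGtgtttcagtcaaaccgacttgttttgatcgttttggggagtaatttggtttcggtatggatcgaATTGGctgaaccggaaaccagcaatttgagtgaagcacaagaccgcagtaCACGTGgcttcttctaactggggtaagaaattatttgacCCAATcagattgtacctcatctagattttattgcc
PRK: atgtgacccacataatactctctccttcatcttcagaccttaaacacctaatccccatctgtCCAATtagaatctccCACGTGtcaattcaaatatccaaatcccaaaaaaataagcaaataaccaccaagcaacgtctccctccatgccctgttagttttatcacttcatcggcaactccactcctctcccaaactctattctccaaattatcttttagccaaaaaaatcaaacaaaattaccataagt
RCA holds 1 I-box and 3 CCAAT motifs, PSAK 1 I-box and 1 CCAAT, LHCB4.1 1 G-box and 3 CCAAT and PRK 1 G-box and 1 CCAAT. A match describes these letters only, and binding was not measured.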

How the data were processed

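RNA amplified from root tissue was sequenced in 12 libraries, with HISAT2, DESeq2 and the TAIR10 build named, without versions, in the submitters' processing notes. Whole-number counts for each locus, not normalized, are what the authors deposited. The joint table and the single-library files held the same number at all 393996 values. The counting tool, its strand setting and its rule for reads with several matches were not stated there or in the labels. Reads not aligned uniquely made up 37.6% to 65.3% of the totals, with the lowest share in the mock 24 h library. The TAIR10.1 annotation gave names to 32548 loci.

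Tests used edgeR 4.0.16 (limma 3.58.1, R 4.3.3): filterByExpr with a minimum count of 10, here 4.71 CPM in at least 2 libraries, which left 16820 genes; TMM scaling; a quasi-likelihood F test with stage, CNQX in uncut roots and CNQX in cut roots as terms (7 coefficients, 5 residual degrees of freedom), treatments averaged in comparisons of stages. A second fit with early and late CNQX effects (8 coefficients) was added after the data had been seen. Standard errors were taken as the absolute log2 fold change divided by the root of F. Benjamini-Hochberg adjustment ran over every gene tested, threshold 0.05. DESeq2 1.42.0 was an alternative, beside RLE scaling, no filter, organelle and ribosomal RNA loci left out, copies summed, a replicate block and each library left out. Scripts were tested on simulated data. Sums of classes are shares of the library total, with no test. Sequences and windows came from RefSeq TAIR10.1 by Python 3.11.15.

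The 49 genes and all lists were chosen with earlier results of these data known. Genes given with all 12 values are the 2 with the highest mean CPM in each class and up to 6 more per class with an adjusted p under 0.05, and up to 4 per pathway list by lowest p in excision or late against early.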

Additional observations from a re-analysis of the deposited data

Results flagged for a closer look

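The CNQX to mock ratio of summed levels lay above 1 at both early times and below 1 at both late times in 4 classes and in the total, which is what flagged these results. For antenna proteins it was 1.19 at 30 min, 1.21 at 4 h, 0.395 at 14 h and 0.451 at 24 h. For photosystem I it was 1.53, 1.12, 0.329 and 0.369, for photosystem II 1.29, 1.99, 0.428 and 0.369, and for electron carriers 1.28, 2.86, 0.431 and 0.660 at the same times. The 2 other classes had another order: Rubisco small subunits had 0.413 CPM in CNQX and 3.94 CPM in mock roots at 30 min and 0 and 0.544 CPM at 4 h, and for Calvin cycle enzymes the ratio was 2.41 at 30 min and 0.743 at 4 h. For all 49 genes it was 1.28, 1.47, 0.351 and 0.357. The difference between early and late was not tested on the sums, which rest on 1 library per treatment and time. Gene by gene, edgeR's test of the late minus the early CNQX effect called 0 of the 38 genes tested, with 9 at an unadjusted p under 0.05, and 0 of all 16820, with 1203. The groups have at most 2 libraries, so single libraries could not be tested as standing apart from their group.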

How the results depend on the processing

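Of the counts of genes called under the alternatives, 205 stayed within 1.5 times the value reported and 11 did not. With the replicate block (same-numbered uncut libraries, which share only a number; their deviations correlated at r = 0.357 over genes in the only 2 pairs there are), 9 genes were called for excision and 1 at 4 h. Without the filter on low counts 1 gene was called at 30 min, 1 at 4 h, 1 for CNQX in cut roots and 5 for CNQX in late cut roots. Leaving out each library gave 9 to 18 genes for excision, 0 to 0 at 30 min, 0 to 2 at 4 h, 10 to 30 at 14 h, 23 to 37 at 24 h, 28 to 39 for late against early and 0 to 0 for each CNQX comparison. The total of the 49 genes then was 9.88 to 17.4 times higher in late than in uncut and 8.75 to 15.4 times than in early cut roots, and its mean late CNQX to mock ratio 0.243 to 0.513. Scaled by TMM factors the ratio was 0.38 at 14 h and 0.387 at 24 h, and without organelle and ribosomal RNA loci 0.405 at 24 h, against 0.351 and 0.357 as reported. Log2 fold changes of CNQX in late cut roots, none of them called, changed sign with the library left out: LHCB6 from -0.56 to 0.084 (0.083 and 0.084 without a 24 h library), LHCB1.5 from -1.19 to 0.65 and LHCB4.2 from -1.59 to 0.93 (both without either 24 h library), and LHCB2.1 from -2.23 to 0.0070 (without mock 14 h). The cause was not tested. At 1 library per treatment and time and a floor of 0.908 to 1.90 CPM, levels of copies such as LHCB1.4 were not measurable in most libraries.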

Other observations

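Some genes for light stress proteins were called higher at 4 h, where edgeR called none of the 38 tested photosynthesis genes above. ELIP1, an early light-induced protein, had 204 counts in CNQX and 187 in mock roots at 4 h, against 32 and 44 in uncut CNQX tips and 59 and 34 in uncut mock tips, and edgeR called it at 4 h against uncut at a log2 fold change of 2.39 ± 0.31 (SE, adjusted p = 0.00194). PSBS was called there at 4.09 ± 0.51 (SE, adjusted p = 0.00157). In the list of other photosynthesis genes 4 of 20 tested were called higher at 4 h and in that of regulators 2 of 7, where 2.59% of all genes were. CAT2, a peroxisomal catalase of photorespiration, had 578 and 880 counts in late CNQX roots and 1135 and 1371 in late mock roots, against 102 and 293 in uncut CNQX tips and 353 and 335 in uncut mock tips. The clock gene LHY had 3 and 41 counts in CNQX and 49 and 242 in mock roots at 14 h and 24 h, and the time of day at which roots were taken is not given in the sources used here.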
